A study of Mus musculus with 6 samples.

Results

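The expression of 10 genes of glucose uptake, glycolysis and lactate handling was compared between kidney monocytes and monocytes of spleen and bone marrow from mice with nephrotoxic nephritis, a model in which antibodies against the kidney filter injure the glomeruli. The genes were Slc2a3, Hk1, Hk2, Hk3, Pfkl, Pfkp, Aldoa, Pgk1, Ldha and Slc16a3, taken by symbol from the 24047 gene rows of the deposited count table, and all 10 were found and tested. The kidney group held 3 libraries, replicates 7, 8 and 22, whose cells are named double_pos. The spleen and marrow group held 3 libraries, replicates 2, 24 and 26, whose cells are named double. All mice were of the strain written C5/Bl6, had nephrotoxic nephritis and were killed on day 13; no genotype is given. Ages ran between 8 and 10 weeks, and the series used 10 mice. Kidney monocytes were enriched with a commercial kit and sorted. The sorted markers are not named, and no isolation is described for the spleen and marrow cells, so tissue and handling cannot be told apart. No healthy mice were included. Whether each library is 1 animal or a pool is not stated, so p-values measure the spread between these libraries.

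Glycolysis splits glucose into pyruvate and yields ATP without oxygen. Glucose enters through facilitative transporters, is trapped as glucose 6-phosphate by hexokinases, and is committed to the pathway by phosphofructokinase. Lactate dehydrogenase turns pyruvate into lactate, which leaves the cell with a proton through monocarboxylate transporters. Myeloid cells that are activated or short of oxygen are known to raise this flux, in part through the transcription factor HIF1.

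The libraries held 7938223, 7824387 and 3492391 counts in kidney, against 8925781, 7311991 and 9727489 in spleen and marrow. Levels are given as CPM, counts scaled to a common library size, and 3 counts, used as a floor of detection, equalled 0.322 to 0.881 CPM. All 8 monocyte markers examined were detected. Csf1r, Cx3cr1, Itgam and Fcgr1 were higher in kidney, by 2.37-fold to 5.47-fold, and Ccr2 and Cd68 had no call. Ly6c2 and Lyz2 were lower, at 0.116 and 0.658 of the spleen and marrow level. The 8 markers summed to 33314 to 35717 CPM in kidney and 44224 to 61260 CPM in spleen and marrow. Most of this was Lyz2, with mean CPM of 30727 in kidney and 46663 in spleen and marrow. Summed macrophage markers were 4690 to 5815 CPM in kidney and 84.3 to 96.0 CPM in spleen and marrow, and 8 of 8 cell cycle genes were lower in kidney. Kidney replicate 22 stood apart from the other kidney libraries. Its neutrophil markers, 9 of 10 of which have a row, summed to 43589 CPM, against 1248 and 4416 CPM in kidney replicates 7 and 8, and 21600 to 29079 CPM in spleen and marrow. Not every gene of that list was high there. Csf3r was at 9.69 CPM, against 19.5 to 32.1 CPM in the other 5 libraries. Mmp8, the only one of the list called lower in kidney, was at 155, 79.5 and 139 CPM in kidney, against 279 to 422 CPM in spleen and marrow. Kidney replicate 8 carried 809 CPM of endothelial markers, against 7.52 to 25.6 CPM in the other 5 libraries. The part of these cells in the levels below was not tested. In such bulk samples, fewer cells of a type and less RNA per cell cannot be told apart.

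None of the 10 genes passed the test. In the same fit, 13.7% of the 10626 tested genes did (edgeR quasi-likelihood test, Benjamini-Hochberg adjusted p under 0.05), with 7.83% higher and 5.9% lower in kidney. None of the 10 had an unadjusted p under 0.05 in edgeR, a mark that 27.9% of tested genes met. With DESeq2, 0 of the 10 passed after adjustment, against 20.4% of tested genes, and 1 had an unadjusted p under 0.05. The kidney and spleen and marrow libraries did not overlap in 1 of the 10 genes, Slc16a3, against 37.9% of tested genes. The median log2 fold change, kidney over spleen and marrow, was 0.03 over the 10 genes and 0.05 over all tested genes. A missed threshold does not show equal expression, and the 95% interval is given for each gene below. The intervals are not adjusted for the number of genes. Per kilobase of transcript, Aldoa, Ldha and Pgk1 were the most abundant of the 10 in both groups, with mean FPKM of 274, 183 and 53.0 in kidney and 302, 195 and 67.8 in spleen and marrow. Each of these was apart from its neighbour in that order. Hk2 came next, with mean FPKM of 5.03 in kidney and 4.93 in spleen and marrow, and overlapped with Pfkp in the spleen and marrow libraries. Neighbours in the kidney order from Pfkp through Slc16a3, Pfkl and Hk3 to Hk1 overlapped. In spleen and marrow, Slc16a3 and Hk3 overlapped as well. Slc2a3 was last, at 0.139 FPKM in kidney and 0.174 FPKM in spleen and marrow.

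**Figure D1:**
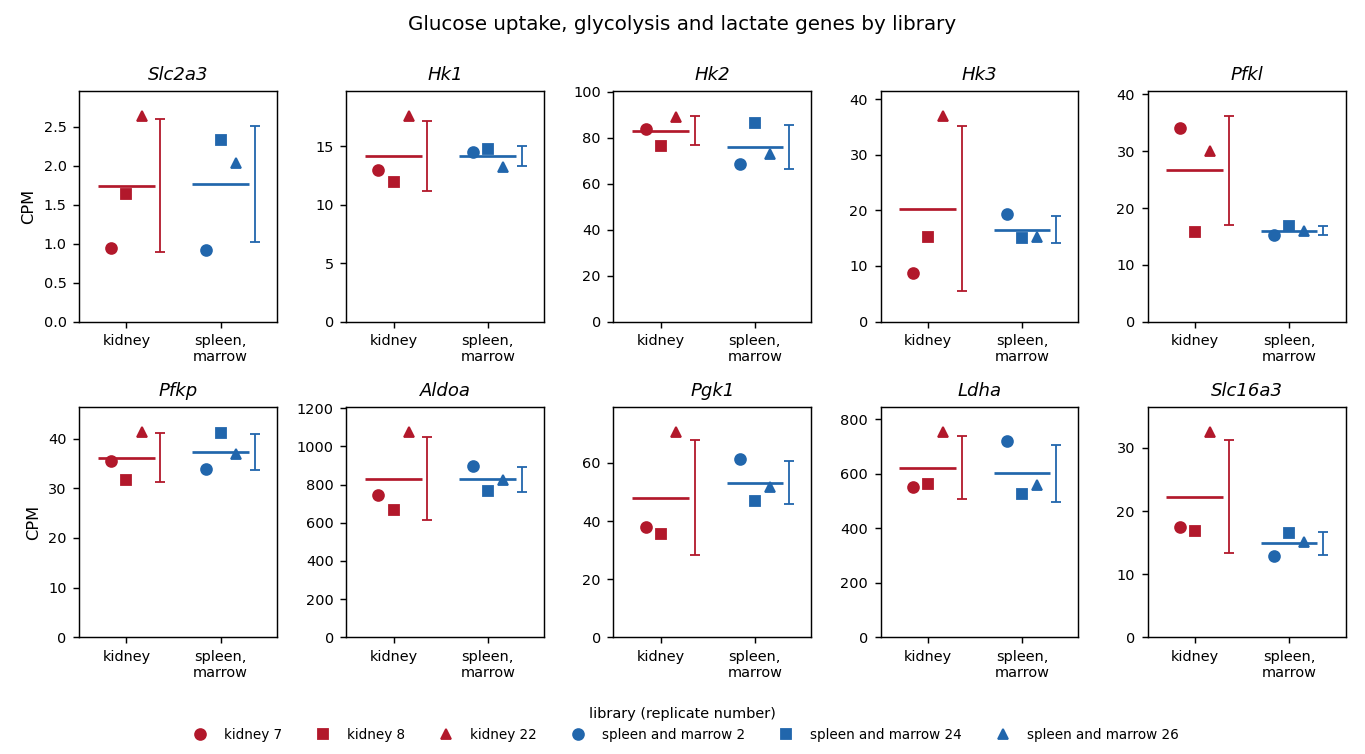
CPM of the 10 genes in each library, kidney left of spleen and marrow, with the group mean as a line and the SD as a bar (n = 3 each); each panel has its own axis from 0. Kidney replicate 22 (triangle) lay above all 3 spleen and marrow libraries in 10 of 10 genes, against 38.4% of tested genes. In FPKM it lay above them in 3 of 10, against 23.7%. The groups were apart in CPM only for Slc16a3.

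**Figure D2:**
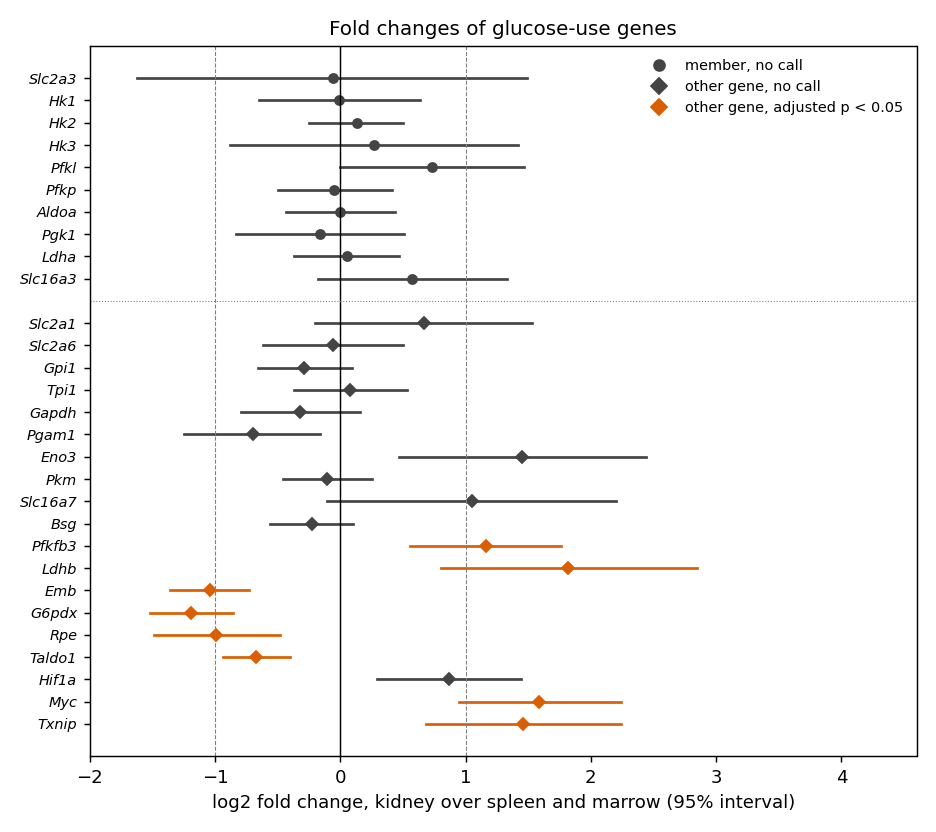
Fitted log2 fold change, kidney over spleen and marrow, with its unadjusted 95% interval for the 10 genes (circles) and for other genes of glucose use (diamonds); dashed lines mark a log2 fold change of -1 and 1. All 10 circles are grey, as no member passed the adjusted threshold, and the coloured diamonds are genes that did.

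For glucose uptake, Slc2a3 encodes GLUT3, a transporter with high affinity for glucose. Its CPM was 0.948, 1.64 and 2.64 in kidney replicates 7, 8 and 22, against 0.919, 2.33 and 2.04 in spleen and marrow replicates 2, 24 and 26. These levels rest on 8, 13 and 9 counts in kidney and 8, 17 and 19 counts in spleen and marrow, little above the floor, and the groups overlapped. The log2 fold change was -0.06 ± 0.67 (SE), with an interval of -1.62 to 1.49, which leaves large changes either way undetectable at this depth. Transporters measured at higher levels included Slc2a1, which encodes GLUT1, the main transporter of many activated immune cells, and Slc2a6, which encodes GLUT6. Slc2a1 was at 31.8, 24.9 and 11.2 CPM in kidney and 14.9, 13.5 and 14.7 CPM in spleen and marrow. Kidney replicates 7 and 8 were above every spleen and marrow library and replicate 22 was below them all. The log2 fold change of Slc2a1 was 0.67 ± 0.38 (SE, edgeR adjusted p = 0.296). Without kidney replicate 22 it was 0.95, with an adjusted p of 0.0111. Slc2a6 had a log2 fold change of -0.06. No transporter of the 3 tested outside the 10 genes passed.

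The hexokinases differ in where they are used. Hk1 is the broadly expressed isoform bound to mitochondria, Hk2 is the inducible isoform of muscle, fat and many activated cells, and Hk3 is most abundant in myeloid cells. Hk2 was the leading hexokinase per length in 6 of 6 libraries. Hk2 was at 83.9, 76.3 and 89.0 CPM in kidney, against 68.6, 86.5 and 72.7 CPM in spleen and marrow. The groups overlapped, through spleen and marrow replicate 24, and the log2 fold change was 0.13 ± 0.16 (SE), with an interval of -0.25 to 0.50 (edgeR adjusted p = 0.659). Hk1 was at 13.0, 11.9 and 17.6 CPM in kidney and 14.5, 14.8 and 13.2 CPM in spleen and marrow. The kidney libraries lay on both sides of the spleen and marrow range, and the log2 fold change was -0.01 ± 0.28 (SE), with an interval of -0.65 to 0.64 (edgeR adjusted p = 0.994). Hk3 was at 8.65, 15.2 and 37.0 CPM in kidney and 19.3, 15.0 and 15.2 CPM in spleen and marrow. Within kidney, replicate 22 was high and replicate 7 was low, and the SD of 14.8 CPM compares with 2.4 CPM in spleen and marrow. The log2 fold change of Hk3 was 0.27 ± 0.50 (SE), with an interval of -0.88 to 1.42 (edgeR adjusted p = 0.772). It was -0.49 without kidney replicate 22, the library with the highest summed neutrophil markers. Those sums were 1248, 4416 and 43589 CPM in kidney replicates 7, 8 and 22. In spleen and marrow they were 21600 to 29079 CPM, with Hk3 at 15.0 to 19.3 CPM. The part of neutrophil RNA in the Hk3 level was not tested. Hkdc1, another gene of the family, had at most 1 count in a library.

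As a share of the summed FPKM of Hk1, Hk2 and Hk3, Hk2 made up 68.5%, 56.9% and 47.9% in kidney and 50.8%, 60.6% and 56.2% in spleen and marrow. The mean share was 57.8% ± 10.3 in kidney and 55.8% ± 4.94 in spleen and marrow (SD, n = 3 each). Hk3 made up 15.4%, 28.9% and 43.4% in kidney and 32.7%, 24.2% and 28.1% in spleen and marrow. Hk1 made up 16.1%, 14.2% and 8.62% in kidney and 16.6%, 15.2% and 15.7% in spleen and marrow. Its kidney shares lay below the spleen and marrow range in replicates 8 and 22 and inside it in replicate 7. The deposited measures disagree on Hk1 in kidney replicate 22. Of the 6 libraries, it was highest there in CPM, at 17.6, and lowest in FPKM, at 0.761. Hk3 exceeded Hk1 in 5 of 6 libraries, kidney replicate 7 being the exception. The summed FPKM was 8.74 ± 0.444 in kidney and 8.81 ± 0.521 in spleen and marrow (SD, n = 3 each). In FPKM the groups' totals thus differed by less than the spread between replicates. No sum was taken in CPM, where Hk1, Hk2 and Hk3 were each highest in kidney replicate 22. Ratios within a library do not depend on scaling between libraries. The log2 ratio of Hk2 to Hk1 counts was 2.57 ± 0.20 in kidney and 2.42 ± 0.16 in spleen and marrow (SD, n = 3 each), a difference of 0.15 (exact two-sided permutation test, p = 0.3). The corresponding difference was 0.06 for Hk3 to Hk1 and -0.09 for Hk3 to Hk2 (exact permutation p = 0.9 for both). With 3 libraries a group, 0.1 is the smallest p these permutations can give. With FPKM in place of counts, the Hk2 to Hk1 difference was 0.37 and the groups were apart, at that smallest p. Within kidney, the Hk2 to Hk1 ratio of replicate 22 was the lowest by counts, at 5.05, and the highest by FPKM, at 5.56. Over the 6 ratios compared, the adjusted p of the Hk2 to Hk1 count ratio was 0.6.

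**Figure D3:**
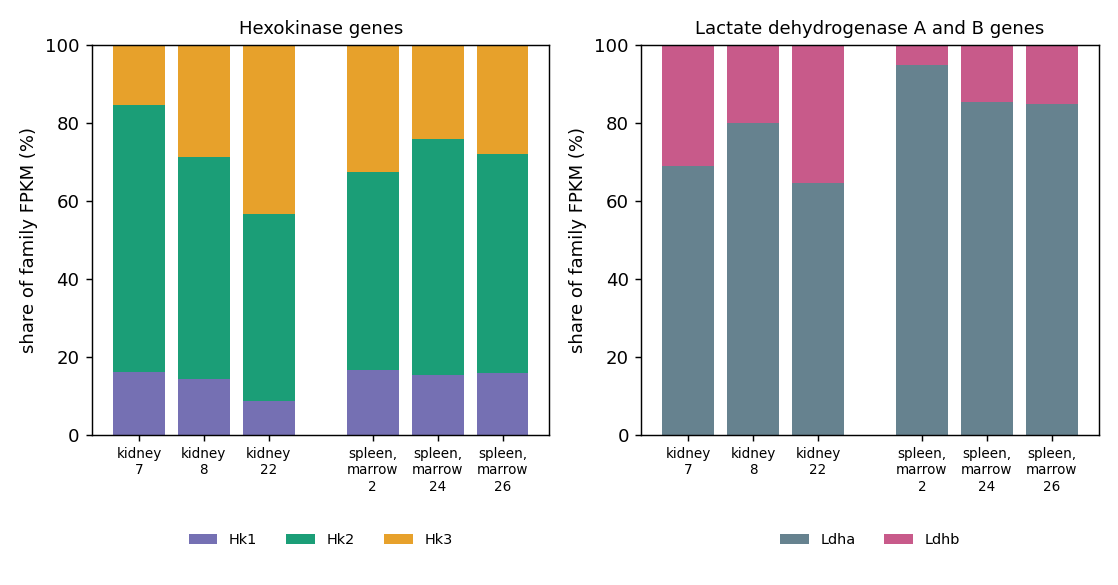
Share of the summed FPKM of each family taken by each gene, in percent, for the 3 kidney libraries and then the 3 spleen and marrow libraries, with hexokinases on the left and lactate dehydrogenases on the right. Hk2 leads in all 6 libraries, and Ldhb takes 20.1% to 35.5% in kidney and 5.21% to 15.1% in spleen and marrow.

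The promoters of the hexokinases and of Ldha are shown because HIF1 and MYC act on this family of genes at short sites. HIF1 binds at the core ACGTG or GCGTG, and MYC binds at CACGTG, which holds ACGTG on both strands. The sequences are RefSeq promoters of build GRCm38.p6, running 250 bases before to 50 after a start, each 5′ to 3′ on the gene's strand, with ACGTG and its reverse complement CACGT in capitals. The Hk1 starts are at chr10:62379859-62380158 (start 1) and chr10:62340372-62340671 (start 2), both on the minus strand. Hk2 is at chr6:82774405-82774704 and Hk3 at chr13:55021336-55021635, both on the minus strand. Ldha start 1 is at chr7:46845554-46845853 on the plus strand.
Hk1 start 1: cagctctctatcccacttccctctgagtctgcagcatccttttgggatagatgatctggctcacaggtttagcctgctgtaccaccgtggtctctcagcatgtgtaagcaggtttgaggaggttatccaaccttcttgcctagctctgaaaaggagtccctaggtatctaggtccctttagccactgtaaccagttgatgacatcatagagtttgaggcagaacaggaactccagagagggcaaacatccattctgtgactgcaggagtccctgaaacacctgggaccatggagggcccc
Hk1 start 2: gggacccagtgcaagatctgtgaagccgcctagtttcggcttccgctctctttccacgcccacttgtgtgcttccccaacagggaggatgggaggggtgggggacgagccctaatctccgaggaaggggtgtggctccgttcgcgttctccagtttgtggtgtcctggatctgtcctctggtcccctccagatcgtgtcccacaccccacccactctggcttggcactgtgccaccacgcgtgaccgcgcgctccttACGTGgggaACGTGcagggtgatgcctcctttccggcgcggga
Hk2: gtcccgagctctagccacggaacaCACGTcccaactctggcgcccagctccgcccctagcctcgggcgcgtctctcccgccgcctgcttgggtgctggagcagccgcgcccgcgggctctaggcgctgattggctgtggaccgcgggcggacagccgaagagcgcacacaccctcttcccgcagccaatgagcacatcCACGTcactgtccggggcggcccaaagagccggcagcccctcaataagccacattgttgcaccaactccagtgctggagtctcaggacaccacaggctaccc
Hk3: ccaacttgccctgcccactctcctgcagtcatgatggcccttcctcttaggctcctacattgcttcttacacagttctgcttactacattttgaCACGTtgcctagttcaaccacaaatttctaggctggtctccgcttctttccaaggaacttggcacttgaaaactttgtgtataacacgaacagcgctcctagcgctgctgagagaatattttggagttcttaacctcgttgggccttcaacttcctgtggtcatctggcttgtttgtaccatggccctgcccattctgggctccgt
Ldha start 1: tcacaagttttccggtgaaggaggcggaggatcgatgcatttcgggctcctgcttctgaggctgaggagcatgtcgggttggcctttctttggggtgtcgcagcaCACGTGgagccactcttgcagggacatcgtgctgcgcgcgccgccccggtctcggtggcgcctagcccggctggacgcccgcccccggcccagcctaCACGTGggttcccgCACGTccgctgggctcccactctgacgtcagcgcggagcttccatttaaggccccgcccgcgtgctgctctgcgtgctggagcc
The Hk1 start 1 promoter held no ACGTG, and start 2 held 2. The Hk2 promoter also held 2 and that of Hk3 held 1. Ldha start 1 held 5 matches of ACGTG over both strands, among them 2 copies of CACGTG, and Ldha start 2, not shown, held none. Over the 10 genes, 9 have an entry and 13 starts in all. ACGTG was present in 8 of these 13 promoters, against 19.6% of all 32851 promoters of the same length. By gene, 7 of 9 held it at 1 start or more. The share by gene over all genes was not computed, so this count has no background beside it. A pair of Aldoa starts overlap and share the same match, which the count by promoter takes at both. GCGTG was present in 5 of 13, against 32.4%, and CACGTG in 1 of 13, against 7.2%. These matches describe the letters of the window, and no binding was measured.

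Phosphofructokinase sets the commitment step, and its liver-type and platelet-type subunits are encoded by Pfkl and Pfkp. Pfkl was at 34.1, 15.8 and 30 CPM in kidney, against 15.2, 16.8 and 16 CPM in spleen and marrow. Kidney replicates 7 and 22 lay above every spleen and marrow library, and replicate 8 lay among them. The log2 fold change was 0.73 ± 0.32 (SE), with an interval of -0.00 to 1.47 (edgeR adjusted p = 0.181). Without kidney replicate 8, the library with high endothelial markers, it was 1.0, with an edgeR adjusted p of 0.0349, in a fit that called 13.9% of tested genes. This was the only call among the 10 genes in any of the 15 alternative fits. Pfkp was at 35.4, 31.7 and 41.4 CPM in kidney and 33.9, 41.2 and 36.8 CPM in spleen and marrow. These ranges overlapped, and the log2 fold change was -0.05 ± 0.20 (SE), with an interval of -0.50 to 0.41. The count ratio of Pfkl to Pfkp, examined after the values were seen, was 0.963, 0.498 and 0.723 in kidney and 0.447, 0.409 and 0.434 in spleen and marrow. The groups were apart in this ratio, at the smallest p the exact permutation test allows, 0.1 (0.3 after adjustment over 6 ratios). Pfkp shares 748 bases of its transcript with the gene Pitrm1 at 95% identity or more, so reads there may be assigned to either.

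Pfkfb3, which makes the fructose 2,6-bisphosphate that activates phosphofructokinase, passed the test. It was at 19.2, 27.0 and 23.5 CPM in kidney, against 11, 10.4 and 9.75 CPM in spleen and marrow. Every kidney library was above every spleen and marrow library, and the log2 fold change was 1.16 ± 0.26 (SE, edgeR adjusted p = 0.0239). The call was lost in 7 of 15 alternatives, among them the fits without kidney replicate 8 and without each spleen and marrow replicate, with adjusted p up to 0.143. Without spleen and marrow replicates 2, 24 and 26 in turn, the log2 fold change was 1.19, 1.14 and 1.10. Those 3 fits made fewer calls over all genes, with 260 to 289 higher and 179 to 208 lower, against 832 and 627. The same fits are named for other genes below. The muscle-type subunit Pfkm had a log2 fold change of 0.13.

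Aldoa, which encodes the aldolase that splits fructose 1,6-bisphosphate, was at 746, 669 and 1078 CPM in kidney and 897, 766 and 822 CPM in spleen and marrow. Kidney replicates 7 and 8 lay below the spleen and marrow range and replicate 22 above it. The log2 fold change was 0.00 ± 0.19 (SE), with an unadjusted interval of -0.43 to 0.44, which lay inside 2-fold either way. The intervals of Hk1, Hk2, Pfkp, Pgk1 and Ldha did so as well. Pgk1, whose enzyme makes ATP from 1,3-bisphosphoglycerate, was at 38.0, 35.4 and 70.8 CPM in kidney, against 61.2, 46.8 and 51.6 CPM in spleen and marrow. Again replicates 7 and 8 were below and replicate 22 above every spleen and marrow library. The log2 fold change was -0.16 ± 0.29 (SE), with an interval of -0.83 to 0.51 (edgeR adjusted p = 0.771), and -0.56 without kidney replicate 22 (adjusted p = 0.0533).

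Among the other steps of glycolysis, 4 upper and 4 lower pathway genes outside the 10 had no call. Gpi1 (glucose 6-phosphate isomerase) and Tpi1 (triose phosphate isomerase) had log2 fold changes of -0.29 and 0.08. Gapdh (glyceraldehyde 3-phosphate dehydrogenase) and Pkm (pyruvate kinase) had -0.32 and -0.11. Pgam1 (phosphoglycerate mutase) had -0.70, with an edgeR adjusted p of 0.09, and was called lower with DESeq2 (0.0472) and limma-voom (0.038). Eno3, the muscle-type enolase, had 1.45 (adjusted p = 0.0613) and was called higher with DESeq2 (0.0178), without kidney replicate 7 (0.0347) and without kidney replicate 22 (0.0322). Without kidney replicate 22, Gpi1 (-0.46, adjusted p = 0.0364), Gapdh (-0.58, 0.0341) and Pgam1 (-0.97, 0.00535) were also called lower in kidney, and Aldoc, another aldolase gene, was called higher (1.70, adjusted p = 0.0438), in a fit that called 25.3% of tested genes. In the fit of all 6 libraries, Aldoc had 1.5 (edgeR adjusted p = 0.164) and its groups were apart.

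For some of these enzymes the deposited counts and FPKM do not describe the same amount of RNA. Over 9818 tested genes, FPKM divided by CPM per kilobase had a median of 0.475. Pgk1 was at 2.36, a value above that of 98.1% of tested genes, and Pgam1 was at 3.62. The other members ran between 0.362 for Hk2 and 0.754 for Slc16a3. Eno1, the main enolase of most cells, had 1, 0 and 8 counts in kidney and 5, 2 and 3 counts in spleen and marrow. Its FPKM was 39.3, 53.4 and 39.3 in kidney and 53.6, 53.3 and 57.0 in spleen and marrow. The near-identical Eno1b, looked up after these values were seen, had at most 2 counts in a library, while its FPKM was 219 to 232 in kidney and 275 to 295 in spleen and marrow. Enolase 1 therefore could not be tested from the counts. Transcripts of Pgk1 matched 4 pseudogenes at 95% identity or more over at least 300 bases, and those of Ldha matched 3. Gapdh matched 77 other genes, of which 73 are pseudogenes. Levels of these genes depend on how reads with several matches were treated, which is not given in the sources used here, and are uncertain to that extent.

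**Figure D4:**
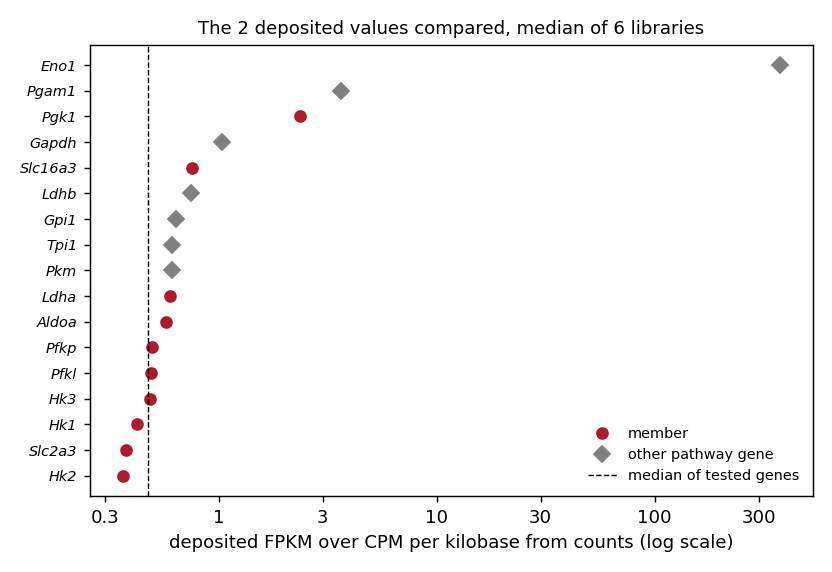
Deposited FPKM divided by CPM per kilobase computed from the deposited counts, median of 6 libraries, on a log axis, for the 10 genes (circles) and other pathway genes (diamonds), with the median of tested genes dashed. Pgk1 at 2.36 lies to the right of the other members, and Eno1 at 375 lies far beyond every gene shown.

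At the lactate step, Ldha encodes the muscle-type subunit of lactate dehydrogenase and Ldhb the heart-type subunit. Ldha was at 550, 562 and 755 CPM in kidney, against 720, 525 and 559 CPM in spleen and marrow. The groups overlapped, and the log2 fold change was 0.05 ± 0.18 (SE), with an interval of -0.37 to 0.47 (edgeR adjusted p = 0.892). Ldhb was at 145, 86.1 and 235 CPM in kidney, against 22.6, 49.4 and 59.2 CPM in spleen and marrow. All kidney libraries were above all spleen and marrow libraries, and the log2 fold change was 1.82 ± 0.44 (SE, edgeR adjusted p = 0.0329). The Ldhb call was lost in 5 of 15 alternatives, among them the fits without kidney replicate 7 and without each spleen and marrow replicate, with adjusted p up to 0.111. Across the kidney libraries, Ldhb followed the order of the proximal tubule markers. Leaving out genes of glucose use, these markers summed to 179, 79.6 and 470 CPM in kidney and 0.919, 2.05 and 2.04 CPM in spleen and marrow. That order was not particular to Ldhb. Hk1, Hk2, Pfkp, Aldoa, Pgk1 and Slc16a3, which had no call, showed it as well, while Slc2a3, Hk3, Pfkl and Ldha did not. The share of all tested genes with this order was not computed. The part of tubule RNA in the Ldhb difference was not tested. In FPKM, Ldha made up 71.1% ± 7.94 of the 2 subunits in kidney and 88.4% ± 5.56 in spleen and marrow (SD, n = 3 each). The count ratio of Ldhb to Ldha, examined after the values were seen, was 0.264, 0.153 and 0.311 in kidney and 0.0314, 0.094 and 0.106 in spleen and marrow. The groups did not overlap in it, and the exact permutation p was 0.1 (0.3 after adjustment over 6 ratios).

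Slc16a3 encodes MCT4, the exporter of lactate in strongly glycolytic cells. It was at 17.4, 16.8 and 32.6 CPM in kidney, against 12.9, 16.6 and 15.1 CPM in spleen and marrow. The groups were apart, by 16.8 against 16.6 CPM at the nearest libraries, and the log2 fold change was 0.57 ± 0.33 (SE), with an interval of -0.18 to 1.33 (edgeR adjusted p = 0.302). Without kidney replicate 22 it was 0.18 (edgeR adjusted p = 0.554), so that library carried most of the difference. Of the other transporters, Slc16a1 (MCT1) and Slc16a7 (MCT2) had log2 fold changes of -0.44 and 1.05 and no call. Slc16a3 took 75.1% ± 5.86 of the summed FPKM of the 3 transporters in kidney and 75.7% ± 1.56 in spleen and marrow (SD, n = 3 each). Bsg, the chaperone of MCT1 and MCT4, had a log2 fold change of -0.23 and no call. Emb, encoding the related chaperone embigin, fell to 535, 449 and 418 CPM in kidney, against 918, 955 and 1019 CPM in spleen and marrow. Its log2 fold change was -1.04 ± 0.14 (SE, edgeR adjusted p = 0.00306), and the call was made in 15 of 15 alternatives.

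Kidney replicate 22 was above all 3 spleen and marrow libraries in CPM for 10 of the 10 genes, a pattern counted after the values were seen. Of the tested genes, 38.4% lay above all 3 in that library and 47.7% below. In kidney replicate 7, 2 of the 10 were above and 4 below, against 44.4% and 35.6% of tested genes. In replicate 8, 1 was above and 4 below, against 39.6% and 37.3%. In FPKM, kidney replicate 22 had 3 of the 10 above and 4 below, against 23.7% and 65.3% of tested genes. The 10 genes share the library, its depth and its scaling, so they are not separate observations of it. Replicate 22 was also the shallowest library and the one with the highest summed neutrophil and proximal tubule markers. Leaving it out, the median log2 fold change of the 10 genes was -0.19, with 7 below 0, while that of all tested genes was 0.07 and 25.3% of genes were called. Still none of the 10 passed. The part of depth and of other cells in this library was not tested.

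Of the 70 other genes of glucose use in the lists examined, 56 were tested, 8 were higher and 4 were lower in kidney, against 7.83% higher and 5.9% lower over all tested genes. The median log2 fold change over the 56 was -0.07. The lower genes included 3 of the 7 pentose phosphate pathway genes, which make NADPH and ribose from glucose 6-phosphate, with a median log2 fold change of -0.67 over the 7. G6pdx, the first enzyme of that pathway, was at 59.4, 66.7 and 69.3 CPM in kidney, against 145, 152 and 149 CPM in spleen and marrow, and its log2 fold change was -1.19 ± 0.14 (SE, edgeR adjusted p = 0.00206). Taldo1 (transaldolase) was at 1113, 1004 and 1132 CPM in kidney, against 1613, 1705 and 1845 CPM in spleen and marrow, with -0.67 ± 0.12 (SE, edgeR adjusted p = 0.00991). Rpe (ribulose phosphate epimerase) had -0.99 ± 0.22 (SE, edgeR adjusted p = 0.0234). Groups were apart for 6 of the 7, against 37.9% of all tested genes. The G6pdx call was made in 15 of 15 alternatives, and that of Taldo1 was lost without spleen and marrow replicate 26 (0.0636) and with replicates 24 and 26 summed (0.051). The Rpe call was lost in 7 of 15, among them the fits without kidney replicate 7 and without each spleen and marrow replicate, with adjusted p up to 0.11. The pathway supplies nucleotide synthesis, and cell cycle genes summed to 60.2, 188 and 255 CPM in kidney and 1686, 1497 and 1532 CPM in spleen and marrow. Their part in these differences was not tested.

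The higher genes included Fbp1, Pck1 and G6pc, enzymes of gluconeogenesis that are abundant in the proximal tubule, and Fbp1 and Pck1 are themselves in the tubule marker list. Fbp1 was at 26.5, 15.7 and 96.3 CPM in kidney, against 0.919, 2.33 and 2.25 CPM in spleen and marrow, and its log2 fold change was 4.63 ± 0.78 (SE, edgeR adjusted p = 0.00848). Pck1 and G6pc were at 0 counts in all 3 spleen and marrow libraries, which makes them at least 34.2-fold and 25.7-fold higher, with a floor of 3 counts over the group (edgeR adjusted p = 0.0135 and 0.013). Pck1 was at 5.93, 3.03 and 1.76 CPM and G6pc at 4.27, 2.02 and 2.35 CPM in kidney replicates 7, 8 and 22. Fbp1 was highest in replicate 22, as were the summed tubule markers given for Ldhb, while Pck1 and G6pc were highest in replicate 7. Of 6 tubule markers that are not genes of glucose use, 5 were tested and 4 were higher in kidney, and Lrp2 and Slc22a6 were at 0 in all spleen and marrow libraries. The part of tubule RNA in these differences was not tested. Calls of Fbp1, Pck1 and G6pc were lost in 2, 5 and 4 of 15 alternatives, with adjusted p up to 0.0594, 0.0886 and 0.0699. Fbp1 was not called without spleen and marrow replicate 2 or 26, and Pck1 and G6pc were not called when any of the 3 spleen and marrow replicates was left out.

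Among the 7 tested regulators of glycolytic genes, 2 were higher in kidney, against 7.83% of all tested genes. Myc, a transcription factor that raises glycolytic and growth genes, was at 20.4, 23.6 and 22.3 CPM in kidney, against 8.61, 5.88 and 7.40 CPM in spleen and marrow, and its log2 fold change was 1.59 ± 0.28 (SE, edgeR adjusted p = 0.00983). Txnip, whose product restrains glucose uptake, was at 133, 105 and 54.9 CPM in kidney, against 26.2, 39.3 and 41.3 CPM in spleen and marrow, with 1.46 ± 0.34 (SE, edgeR adjusted p = 0.0268). In both genes every kidney library was above every spleen and marrow library. The Myc call was lost without spleen and marrow replicate 24 or 26 and with replicates 24 and 26 summed, with adjusted p up to 0.0738. The Txnip call was lost in 8 of 15 alternatives, with adjusted p up to 0.175, among them each fit without a spleen and marrow replicate and those without kidney replicate 7 or 8. Hif1a, which encodes the oxygen-regulated subunit of HIF1, was at 94.7, 58.8 and 67.5 CPM in kidney, against 50.1, 38.7 and 32.4 CPM in spleen and marrow. These groups were apart, and the log2 fold change of 0.87 ± 0.25 (SE) missed the threshold (edgeR adjusted p = 0.0573). It passed with DESeq2 (0.0149), limma-voom (0.0461) and without kidney replicate 8 (0.0482) or 22 (0.0391). No gene of pyruvate entry into mitochondria (10 tested) or of glycogen and other glucose use (8 tested) passed, against 13.7% of all tested genes, so few calls would be met in lists of this length.

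**Figure D5:**
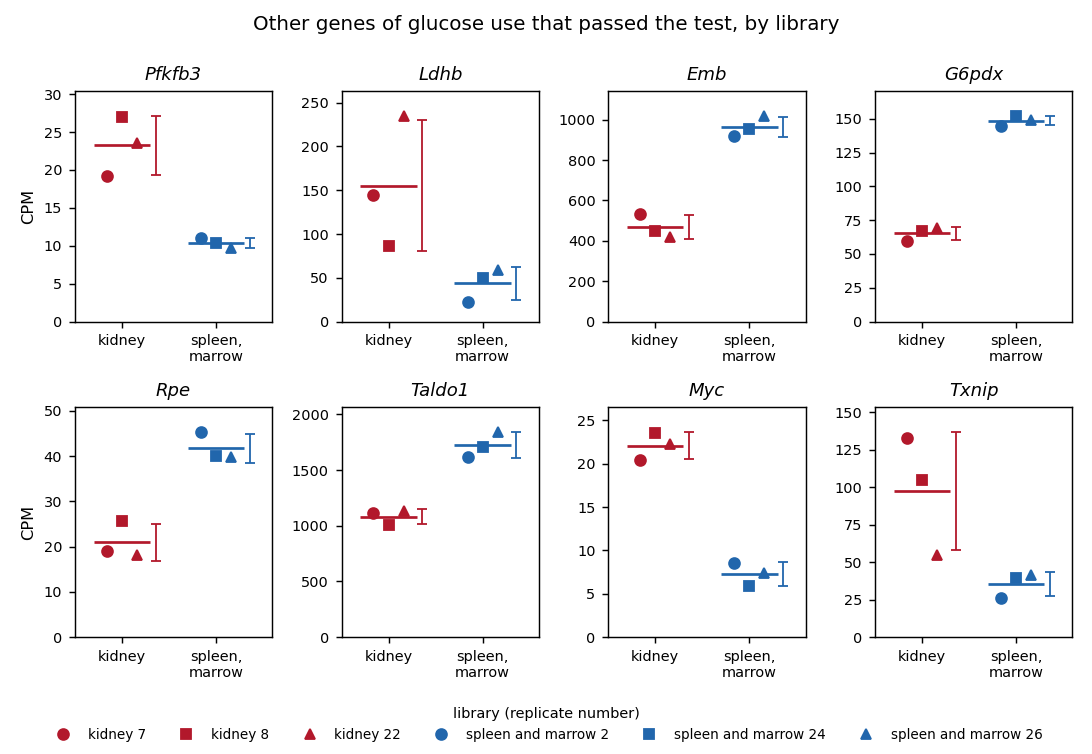
CPM of 8 other genes of glucose use that passed the test, by library, kidney left of spleen and marrow, with the group mean as a line and the SD as a bar (n = 3 each); each panel has its own axis from 0. Pfkfb3, Ldhb, Myc and Txnip are above every spleen and marrow library in all 3 kidney libraries, and Emb, G6pdx, Rpe and Taldo1 are below.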

How the data were processed

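Monocyte RNA from 3 kidney and 3 spleen and marrow libraries was sequenced after SMART-Seq v4 cDNA synthesis, which does not mark strand, per the labels' protocols. The authors deposited raw counts per gene as whole numbers, and FPKM values that are normalized for length and depth, in 24043 rows. The submitters' processing notes name Cufflinks 2.2.1, STAR 2.5, bcl2fastq 2.18 and build mm9 with no role for any. Which program counted the reads, and on which annotation, was not given in the sources used here. The 92 spike-in rows held no counts and were left out.

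The test was that of edgeR 4.0.16, run in R 4.3.3 (filterByExpr, TMM scaling, quasi-likelihood F test, two-sided, Benjamini-Hochberg over 10626 genes, threshold 0.05). CPM used TMM-scaled library sizes. FPKM served for levels per length and as an alternative with limma 3.58.1 on log2(FPKM + 1) and log2(FPKM + 0.1), where fold changes of low genes are understated. DESeq2 1.42.0, limma-voom, other filters and scaling, and leaving out each library were the other alternatives. Ratios within a library were tested by exact two-sided permutation. The code was tested on simulated data. Near-identical copies were sought with BLAST 2.17.0 on GRCm38 transcripts, and promoters came from RefSeq. Floors of 3 counts cover counting error only.

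The members and lists were chosen with earlier results of these data known. All 10 members are named, with the listed genes that passed, apart from items not reported here, and the paralogs and pathway neighbours that a comparison needs. Spleen and marrow replicates 24 and 26 were the most alike pair, with chi-square over degrees of freedom at 2.86, against 22.2 to 59.7 for the other pairs within groups. They differed by more than sampling noise and were counted as 2 libraries. That difference does not show that they come from separate animals, and fits with the pair summed are given below.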

Additional observations from a re-analysis of the deposited data

How the results depend on the processing

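No paired analysis was made, because the kidney and spleen and marrow libraries share no replicate numbers. Whether some of them come from the same animals is not stated. Of the 10 genes, only Pfkl was called in any of the 15 alternatives, without kidney replicate 8, so the count of members called higher ran between 0 and 1 as libraries were left out. Over all genes, calls higher in kidney numbered 832, against 468 on log2(FPKM + 1), 543 on log2(FPKM + 0.1), 299 with spleen and marrow replicates 24 and 26 summed, and 260 to 1569 with 1 library left out. Calls lower in kidney numbered 627, against 995 with DESeq2, 201 with the replicates summed, and 179 to 1215 with 1 library left out. The share of calls that were higher was 57.0%, against 46.8% with limma-voom and 42.7% and 48.1% on the FPKM scales. Other pathway genes called higher numbered 8, against 5 on log2(FPKM + 1), 2 with the replicates summed and 1 to 15 with 1 library left out. Those called lower numbered 4, against 2 with the replicates summed and 2 to 8 with 1 library left out. The Hk2 to Hk1 difference was 0.37 in FPKM. The median of all genes moved to 0.18 without a low count filter and -0.14 on log2(FPKM + 0.1).

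The cause of the following sign changes, all of log2 fold changes that passed no test, was not tested. Slc2a3 was 0.10 with the replicates summed, Hk1 0.05 and Pfkp 0.01 with library size scaling, and Hk3 -0.17 with limma-voom and -0.02 and -0.07 on the FPKM scales. Ldha was -0.08 on both FPKM scales and -0.05 with the replicates summed. Pfkm was -0.34 with limma-voom, -0.03 on log2(FPKM + 0.1) and -0.05 with the replicates summed, and Tpi1 was -0.07 on both FPKM scales. With 1 library left out, the values ran from -0.45 to 0.26 for Slc2a3, -0.20 to 0.10 for Hk1, -0.49 to 0.65 for Hk3, -0.17 to 0.03 for Pfkp and -0.25 to 0.14 for Aldoa. They ran from -0.56 to 0.02 for Pgk1, -0.14 to 0.18 for Ldha, -0.20 to 0.16 for Slc2a6, -0.95 to 0.59 for Pfkm, -0.16 to 0.21 for Tpi1 and -0.27 to 0.01 for Pkm. Depth limits Slc2a3, with 8 to 19 counts a library.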
